A study of Homo sapiens with 14 samples.

Results

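The genes described here make cholesterol and fatty acids. They were 29 genes picked by symbol from a table of 62699 genes, 21 of the sterol branch and 8 of the fatty acid branch, and all 29 were found and passed the filter on low counts over the 4 cell lines. The sterol branch held the enzymes of the mevalonate and cholesterol pathway, from ACAT2 and HMGCS1 to DHCR7, with the regulators SREBF2 and INSIG1 and the sterol carrier STARD4. The fatty acid branch held ACLY, ACACA, FASN, ELOVL6, SCD, FADS1 and FADS2 with the regulator SREBF1.

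RNA sequencing of poly(A) RNA gave 14 bulk libraries of human cancer cell lines, made to look at what ADAR1 and NOP14 do to transcription in these cells. In each of 4 lines, 2 libraries of cells with an siRNA against ADAR, the gene of the adenosine deaminase ADAR1, were set against 1 library of cells with a control siRNA. The lines came from triple-negative breast cancer (MDA-MB-231 and BT-549), lung adenocarcinoma (NCI-H1395) and gastric cancer (AGS). In MDA-MB-231, 1 library with NOP14 overexpression, NOP14 being a nucleolar protein of ribosome assembly, was set against 1 library named PCDH. No siRNA sequence, dose or time, and no origin of the libraries as separate cultures or clones, is stated in the sources at hand, so p-values measure only the spread between these libraries. In bulk RNA, fewer cells with a transcript and less of it per cell cannot be told apart.

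Cholesterol is built from acetyl-CoA through mevalonate, isoprenoid diphosphates, squalene and lanosterol. Fatty acids are built from the same acetyl-CoA, which ACLY frees from citrate, by carboxylation, chain growth, elongation and desaturation. The transcription factors SREBP1 and SREBP2, encoded by SREBF1 and SREBF2, are held in the endoplasmic reticulum by INSIG1 and the escort SCAP when sterols are plentiful. When sterols are scarce they are cut free and bind promoters at sterol regulatory elements, often beside CCAAT and SP1 boxes. SREBP2 is best known for the sterol genes and the short form of SREBP1 for the fatty acid genes.

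Promoter windows of RefSeq on GRCh38.p14, which run from 250 bases before to 50 after an annotated start, were matched by symbol for 25 of the 29 members, and FDFT1, SQLE, ACAT2 and FASN had none. Both strands were searched for a sterol regulatory element (TCACNCCAC), a CCAAT box (CCAAT) and an SP1 box (GGGCGG), each counted on its own, so that a base could count for more than 1 motif. A CCAAT box was in the windows of 20 of 25 members (80%), in 16 of 18 sterol genes and 4 of 7 fatty acid genes, against 39.7% of 27305 genes with a window and 42.1% of the 13248 that were also tested over the 4 lines. An SP1 box was in 24 of 25 members (96%), against 48.3% and 72.2% of the same gene sets. The sterol regulatory element was in 1 member, SREBF2, against 1.39% and 1.48%. These are matches of letters in short windows and not sites of binding.

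The windows of 4 members are shown on their own strand, with the sterol regulatory element and the CCAAT boxes in capitals. SREBF2 is shown as the member with the sterol element. HMGCS1, EBP and SCD are shown because the comparisons below turn on them. In SREBF2 (chr22:41832855-41833154, plus strand) the element begins 133 bases before the start and the CCAAT box, on the other strand, 106 bases before it. In HMGCS1 (chr5:43313363-43313662, minus strand, the first of its windows) CCAAT boxes begin 155 and 100 bases before the start, both on the other strand. In EBP (chrX:48521558-48521857, plus strand) they begin 191, 70 and 30 bases before it, all on the other strand. In SCD (chr10:100346983-100347282, plus strand) they begin 229 and 186 bases before it, both on the gene's own strand.
SREBF2: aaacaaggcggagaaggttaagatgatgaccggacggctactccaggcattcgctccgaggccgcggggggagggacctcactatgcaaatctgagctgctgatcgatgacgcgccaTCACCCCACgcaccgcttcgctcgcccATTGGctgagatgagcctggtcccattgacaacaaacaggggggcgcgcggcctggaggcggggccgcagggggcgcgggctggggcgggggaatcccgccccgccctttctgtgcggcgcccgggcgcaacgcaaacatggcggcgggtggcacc
HMGCS1: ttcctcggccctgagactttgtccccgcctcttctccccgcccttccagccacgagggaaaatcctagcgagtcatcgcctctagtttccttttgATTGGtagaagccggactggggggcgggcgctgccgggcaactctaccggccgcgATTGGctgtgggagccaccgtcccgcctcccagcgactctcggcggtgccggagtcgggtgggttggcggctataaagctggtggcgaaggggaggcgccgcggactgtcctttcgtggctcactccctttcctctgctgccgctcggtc
EBP: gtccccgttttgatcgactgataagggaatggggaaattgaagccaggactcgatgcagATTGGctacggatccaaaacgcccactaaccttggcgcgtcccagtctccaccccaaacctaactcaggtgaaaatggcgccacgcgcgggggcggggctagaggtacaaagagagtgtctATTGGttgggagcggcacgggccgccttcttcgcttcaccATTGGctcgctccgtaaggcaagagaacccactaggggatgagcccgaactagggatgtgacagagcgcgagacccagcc
SCD: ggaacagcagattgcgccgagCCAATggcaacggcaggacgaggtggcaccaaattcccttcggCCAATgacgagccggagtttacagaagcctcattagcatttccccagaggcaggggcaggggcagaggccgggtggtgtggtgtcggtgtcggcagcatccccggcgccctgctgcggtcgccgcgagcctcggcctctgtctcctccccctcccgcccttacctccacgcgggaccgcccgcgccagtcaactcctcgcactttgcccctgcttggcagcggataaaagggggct

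Total counts per library ranged from 13338338 to 27828376, and the 29 members together took 0.18% to 1.05% of them. ADAR (ENSG00000160710.18) was lower in all 8 ADAR siRNA libraries, with edgeR adjusted p of 0.00663 for MDA-MB-231, 1.78e-06 for BT-549, 9.45e-07 for NCI-H1395 and 0.000287 for AGS, and missed the threshold over the 4 lines (-2.50 ± 0.29 (SE; edgeR adjusted p = 0.0996)). NOP14 (ENSG00000087269.16) had 788 CPM in cells with NOP14 overexpression, against 119 CPM with PCDH. Markers that define lung adenocarcinoma (NKX2-1, NAPSA, SFTPB and SFTPC) summed to 0.16 to 1.32 CPM (CPM being read counts scaled by TMM to a common library size) in NCI-H1395, with 1 to 2 of the 4 at 0, and stomach markers (TFF1, TFF2, MUC5AC, GKN1 and CLDN18) to 1.68 to 2.86 CPM in AGS, with 2 of the 5 at 0. Breast markers (GATA3, ESR1, PGR, KRT5 and KRT14) summed to 9.09 to 14.8 CPM in MDA-MB-231 and 26.7 to 39.3 CPM in BT-549. In other lines, stomach markers reached 9.16 to 15.0 CPM in MDA-MB-231, and lung markers 0.693 to 2.30 CPM in AGS. Breast markers reached 8.24 to 8.93 CPM in NCI-H1395. The lung and stomach markers were thus not highest in the line of their tissue. Mesenchymal markers (VIM, FN1, SPARC and CDH2) summed to 4.91 to 11.8 CPM in AGS and at least 1316 CPM in the other lines. Epithelial markers summed to 75.3 to 98.1 CPM in BT-549 and at least 628 CPM in the other 3 lines. The marker genes of liver and fat cells, which make much lipid, summed to at most 3.003 CPM in every library.

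Between the siRNA libraries of the 4 lines the level of these genes differed widely. By the F test of the line term (edgeR, 8 columns, 2 for each line), 28 of 29 members differed between lines, beside 83.7% of all genes tested, so the share of members is not far above that of all genes. Per kilobase of exon, the median level in control siRNA libraries was 29.5 CPM per kb for sterol genes and 62.1 for fatty acid genes in BT-549, 15.5 and 25.1 in NCI-H1395, 10.3 and 17.5 in AGS, and 5.95 and 11.5 in MDA-MB-231. BT-549 was the highest of the 4 control siRNA libraries for 16 of 21 sterol genes and 7 of 8 fatty acid genes. MDA-MB-231 was the lowest for 14 sterol and 3 fatty acid genes, and AGS for 4 and 4. How often all genes were highest or lowest in each line was not counted. The low place of MDA-MB-231 turned with the control used. Its PCDH library had medians of 19.1 CPM per kb for sterol genes and 39.3 for fatty acid genes, above the control siRNA libraries of NCI-H1395 and AGS, and with PCDH in place of control siRNA the line was lowest for 1 sterol and 0 fatty acid genes, a comparison added after these values were seen.

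**Figure D1:**
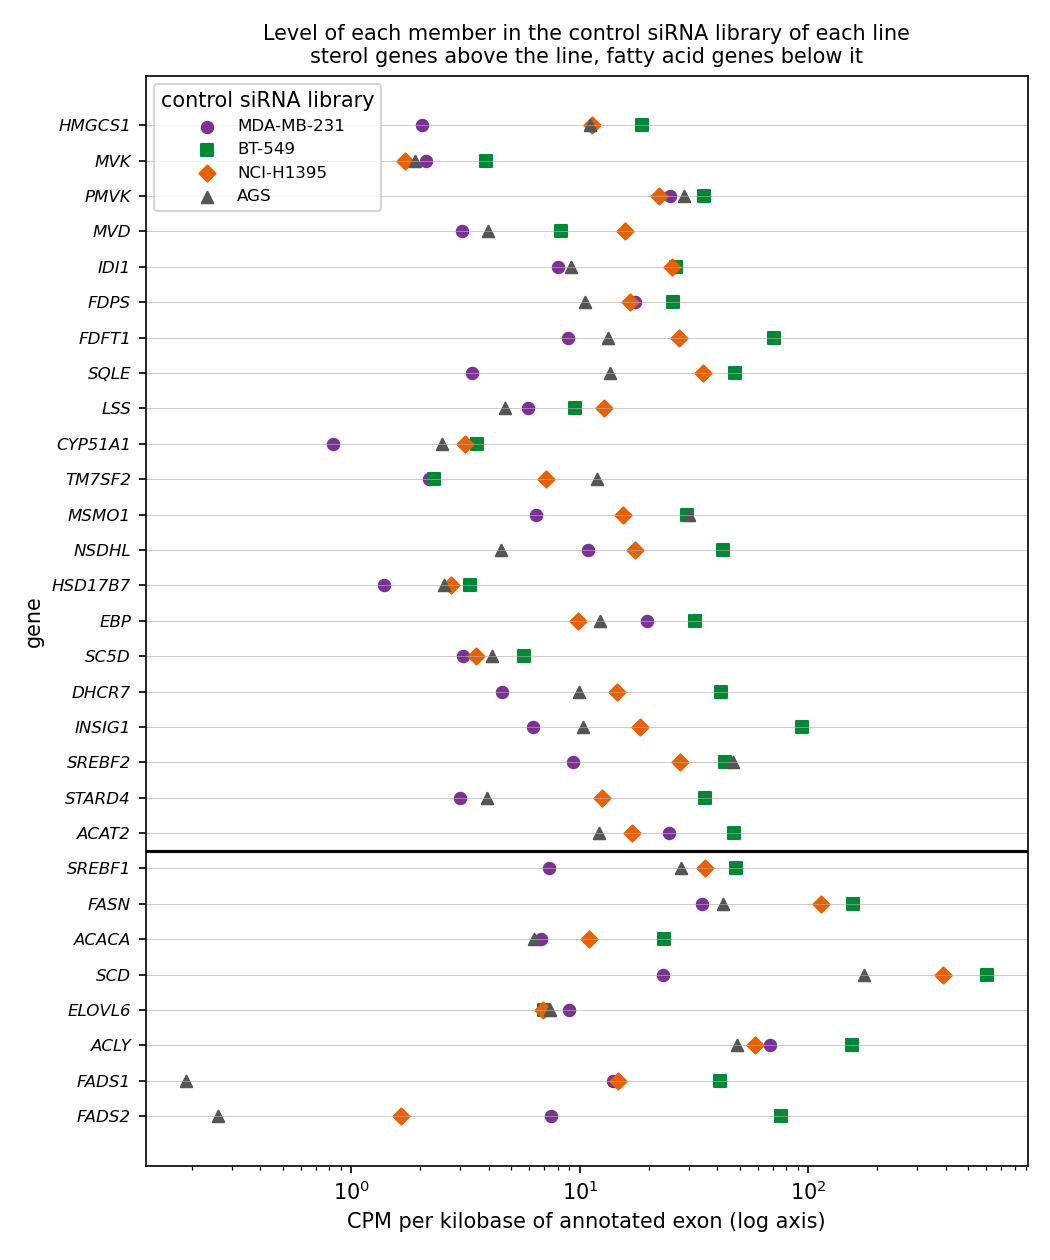
Level of each member in the 4 control siRNA libraries, in CPM per kilobase of annotated exon on a log axis, with sterol genes above the thick line and fatty acid genes below it. Each symbol is 1 library of 1 line. BT-549 lies highest for 16 of 21 sterol genes, MDA-MB-231 lowest for 14, and FADS1 and FADS2 span the widest range, with AGS at 0.189 and 0.26 CPM per kb. The same places were not counted over all genes.

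All 3 siRNA libraries of BT-549 stood above all 9 of the other lines in 14 of 21 sterol genes and 4 of 8 fatty acid genes, beside 10.8% of all genes. All 3 of MDA-MB-231 stood below the other 9 in 8 of 21 and 2 of 8, beside 9.32%. With the vector libraries of MDA-MB-231 included, this held for 1 of 21 and 0 of 8, and the share of all genes was not computed for this. The control siRNA libraries spanned a median of 4.65-fold over the sterol genes and 5.59-fold over the fatty acid genes from the lowest line to the highest. The span was narrowest for ELOVL6 (1.30-fold) and PMVK (1.57-fold). It was widest for FADS2 (292-fold), FADS1 (219-fold), SCD (26.3-fold), INSIG1 (15.1-fold) and SQLE (14.1-fold).

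The smallest p of the line term among sterol genes belonged to SQLE (edgeR F test, adjusted p = 2.65e-10), FDFT1 (adjusted p = 5.6e-10) and DHCR7 (adjusted p = 3.11e-09), and among fatty acid genes to FADS2 (adjusted p = 3.47e-13), FADS1 (adjusted p = 1.6e-11) and ACLY (adjusted p = 8.18e-08). HSD17B7 was the 1 member that missed the threshold (adjusted p = 0.191).

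Values in each siRNA library are given next along the pathway, with ADAR siRNA libraries 1 and 2 in that order. ACAT2 is the cytosolic thiolase that joins acetyl-CoA units at the head of the sterol pathway. ACAT2 had 59.4 and 71.7 CPM with ADAR siRNA, against 64.7 CPM with control siRNA in MDA-MB-231, and 128 and 126 CPM with ADAR siRNA, against 124 CPM with control siRNA in BT-549. It had 30.1 and 23.9 CPM with ADAR siRNA, against 44.6 CPM with control siRNA in NCI-H1395, and 23.6 and 24.7 CPM with ADAR siRNA, against 32.1 CPM with control siRNA in AGS. Both ADAR siRNA libraries lay below the control in NCI-H1395 and AGS, and the control lay between them or close by in the breast lines. Its exons share 454 bases with TCP1 on the opposite strand, 17.2% of their length, and no source used here says whether strand was counted.

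HMGCS1 makes HMG-CoA, the substrate of the pathway's rate-limiting reductase. HMGCS1 had 22.8 and 22.1 CPM with ADAR siRNA, against 13.5 CPM with control siRNA in MDA-MB-231, and 155 and 189 CPM with ADAR siRNA, against 124 CPM with control siRNA in BT-549. It had 61.3 and 60.3 CPM with ADAR siRNA, against 74.7 CPM with control siRNA in NCI-H1395, and 121 and 82.8 CPM with ADAR siRNA, against 73.3 CPM with control siRNA in AGS. HMGCS1 was higher in both ADAR siRNA libraries of MDA-MB-231, BT-549 and AGS and lower in both of NCI-H1395. An antisense gene with 0 counts covers 37.7% of its exons, and these counts do not tell how reads in the shared exons were counted. MVK phosphorylates mevalonate. MVK had 16.4 and 20.9 CPM with ADAR siRNA, against 19.1 CPM with control siRNA in MDA-MB-231, and 37.3 and 33.9 CPM with ADAR siRNA, against 35.1 CPM with control siRNA in BT-549. It had 14.7 and 10.03 CPM with ADAR siRNA, against 15.4 CPM with control siRNA in NCI-H1395, and 16.3 and 18.99 CPM with ADAR siRNA, against 17.2 CPM with control siRNA in AGS. The highest of its levels were the 3 of BT-549. PMVK adds the next phosphate. PMVK had 21.4 and 28.3 CPM with ADAR siRNA, against 24.8 CPM with control siRNA in MDA-MB-231, and 37.5 and 38.5 CPM with ADAR siRNA, against 34.9 CPM with control siRNA in BT-549. It had 18.2 and 23.04 CPM with ADAR siRNA, against 22.2 CPM with control siRNA in NCI-H1395, and 15.2 and 24.5 CPM with ADAR siRNA, against 28.8 CPM with control siRNA in AGS. Its lowest level was in ADAR siRNA library 1 of AGS.

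MVD decarboxylates the product to isopentenyl diphosphate, the first isoprene unit. MVD had 11.8 and 13.98 CPM with ADAR siRNA, against 14.3 CPM with control siRNA in MDA-MB-231, and 50.4 and 51.6 CPM with ADAR siRNA, against 38.9 CPM with control siRNA in BT-549. It had 52.2 and 50.4 CPM with ADAR siRNA, against 74.4 CPM with control siRNA in NCI-H1395, and 13.6 and 22.9 CPM with ADAR siRNA, against 18.6 CPM with control siRNA in AGS. MVD was higher in both ADAR siRNA libraries of BT-549 and lower in both of NCI-H1395, and its highest level was the NCI-H1395 control. IDI1 interconverts the isoprene units. IDI1 had 34.3 and 46.1 CPM with ADAR siRNA, against 34.5 CPM with control siRNA in MDA-MB-231, and 98.98 and 100.4 CPM with ADAR siRNA, against 113 CPM with control siRNA in BT-549. It had 63.4 and 62.2 CPM with ADAR siRNA, against 108 CPM with control siRNA in NCI-H1395, and 42.6 and 38.6 CPM with ADAR siRNA, against 39.4 CPM with control siRNA in AGS. In NCI-H1395 both ADAR siRNA libraries lay far below the control, and in AGS the control lay between them. FDPS joins isoprene units to farnesyl diphosphate. FDPS had 54.2 and 64.9 CPM with ADAR siRNA, against 65.05 CPM with control siRNA in MDA-MB-231, and 89.8 and 66 CPM with ADAR siRNA, against 94.7 CPM with control siRNA in BT-549. It had 46.7 and 43.9 CPM with ADAR siRNA, against 61.8 CPM with control siRNA in NCI-H1395, and 30.1 and 42.9 CPM with ADAR siRNA, against 39.2 CPM with control siRNA in AGS. The levels of FDPS in NCI-H1395 were lower in both ADAR siRNA libraries. The opposite-strand gene RUSC1-AS1 overlaps 18.6% of its exons, and how reads there were counted cannot be told.

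FDFT1, squalene synthase, commits farnesyl diphosphate to sterols. FDFT1 had 24.03 and 34.7 CPM with ADAR siRNA, against 44.95 CPM with control siRNA in MDA-MB-231, and 384 and 355 CPM with ADAR siRNA, against 359 CPM with control siRNA in BT-549. It had 85.9 and 97.3 CPM with ADAR siRNA, against 139 CPM with control siRNA in NCI-H1395, and 50.2 and 60.4 CPM with ADAR siRNA, against 67.2 CPM with control siRNA in AGS. All 3 levels in BT-549 exceeded every other, and both ADAR siRNA libraries lay below the control in MDA-MB-231, NCI-H1395 and AGS. SQLE oxidises squalene and is a second control point of the pathway. SQLE had 14.7 and 17.1 CPM with ADAR siRNA, against 14.5 CPM with control siRNA in MDA-MB-231, and 219 and 243 CPM with ADAR siRNA, against 205 CPM with control siRNA in BT-549. It had 124 and 115 CPM with ADAR siRNA, against 149 CPM with control siRNA in NCI-H1395, and 63.6 and 46.5 CPM with ADAR siRNA, against 58.6 CPM with control siRNA in AGS. The 3 levels in MDA-MB-231 were the lowest, and the 3 in BT-549 the highest. LSS closes the ring to lanosterol. LSS had 46.8 and 53.3 CPM with ADAR siRNA, against 43.1 CPM with control siRNA in MDA-MB-231, and 77.3 and 61.2 CPM with ADAR siRNA, against 68.7 CPM with control siRNA in BT-549. It had 64.8 and 40.2 CPM with ADAR siRNA, against 92.3 CPM with control siRNA in NCI-H1395, and 29.6 and 43.5 CPM with ADAR siRNA, against 34.1 CPM with control siRNA in AGS. Library 2 of NCI-H1395 had less LSS than library 1, and both lay below the control.

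CYP51A1 removes a methyl group from lanosterol. CYP51A1 had 2.63 and 3.33 CPM with ADAR siRNA, against 3.47 CPM with control siRNA in MDA-MB-231, and 14.7 and 14.3 CPM with ADAR siRNA, against 14.8 CPM with control siRNA in BT-549. It had 10.4 and 10.2 CPM with ADAR siRNA, against 13.1 CPM with control siRNA in NCI-H1395, and 5.31 and 8.01 CPM with ADAR siRNA, against 10.4 CPM with control siRNA in AGS. CYP51A1 was lower in all 8 ADAR siRNA libraries, though its levels in BT-549 lay close to the control. Its counts were low, 39 to 316 per siRNA library. Its exons share 68.2% of their length with an overlapping gene on the same strand that has 0 counts. Another gene on that strand, with 40 counts in all libraries, shares 67.8%. Whether reads in shared exons were counted for CYP51A1 cannot be told from these counts. TM7SF2 is a sterol reductase of the next step. TM7SF2 had 5.39 and 7.63 CPM with ADAR siRNA, against 7.43 CPM with control siRNA in MDA-MB-231, and 7.93 and 11.4 CPM with ADAR siRNA, against 7.88 CPM with control siRNA in BT-549. It had 19.6 and 26.4 CPM with ADAR siRNA, against 24.2 CPM with control siRNA in NCI-H1395, and 22.1 and 47.2 CPM with ADAR siRNA, against 40.4 CPM with control siRNA in AGS. Library 2 had more TM7SF2 than library 1 in all 4 lines. MSMO1 oxidises methyl groups of the sterol ring. MSMO1 had 15.3 and 17.9 CPM with ADAR siRNA, against 18.4 CPM with control siRNA in MDA-MB-231, and 75.8 and 102 CPM with ADAR siRNA, against 84.1 CPM with control siRNA in BT-549. It had 21.9 and 37 CPM with ADAR siRNA, against 44.2 CPM with control siRNA in NCI-H1395, and 77.05 and 76.7 CPM with ADAR siRNA, against 85.5 CPM with control siRNA in AGS. In NCI-H1395, library 1 had 21.9 CPM of MSMO1 and library 2 had 37.0 CPM, both below the control.

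NSDHL works beside MSMO1 in removing these methyl groups. NSDHL had 15.4 and 15.6 CPM with ADAR siRNA, against 21.7 CPM with control siRNA in MDA-MB-231, and 90.2 and 93.8 CPM with ADAR siRNA, against 84.2 CPM with control siRNA in BT-549. It had 29.96 and 36.7 CPM with ADAR siRNA, against 34.8 CPM with control siRNA in NCI-H1395, and 8.89 and 9.63 CPM with ADAR siRNA, against 9 CPM with control siRNA in AGS. Its level in AGS was the lowest of the lines and in BT-549 the highest. HSD17B7 reduces the keto group that is left. HSD17B7 had 11.3 and 11.1 CPM with ADAR siRNA, against 6.63 CPM with control siRNA in MDA-MB-231, and 13.8 and 12.3 CPM with ADAR siRNA, against 15.8 CPM with control siRNA in BT-549. It had 10.4 and 11.4 CPM with ADAR siRNA, against 13.1 CPM with control siRNA in NCI-H1395, and 7.80 and 7.39 CPM with ADAR siRNA, against 12.2 CPM with control siRNA in AGS. It was higher in both ADAR siRNA libraries of MDA-MB-231 and lower in both of each other line. EBP shifts a double bond of the sterol ring. EBP had 22.96 and 24.9 CPM with ADAR siRNA, against 34.9 CPM with control siRNA in MDA-MB-231, and 56.5 and 43.8 CPM with ADAR siRNA, against 56.1 CPM with control siRNA in BT-549. It had 10.8 and 9.43 CPM with ADAR siRNA, against 17.4 CPM with control siRNA in NCI-H1395, and 9.64 and 9.02 CPM with ADAR siRNA, against 21.7 CPM with control siRNA in AGS. EBP was lower in both ADAR siRNA libraries of MDA-MB-231, NCI-H1395 and AGS, and in BT-549 library 1 and the control were alike. An overlapping gene on its own strand covers 36.4% of its exons, with 18 counts in all libraries against 7411 for EBP. These counts do not tell how reads in shared exons were counted.

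SC5D adds a double bond to the ring. SC5D had 28.01 and 28.7 CPM with ADAR siRNA, against 30.8 CPM with control siRNA in MDA-MB-231, and 54.8 and 55.2 CPM with ADAR siRNA, against 57.5 CPM with control siRNA in BT-549. It had 29.9 and 31.3 CPM with ADAR siRNA, against 35.1 CPM with control siRNA in NCI-H1395, and 53.1 and 43.2 CPM with ADAR siRNA, against 41.3 CPM with control siRNA in AGS. The levels of SC5D in each line lay close together, except in AGS. DHCR7 gives cholesterol in the last step. DHCR7 had 28.9 and 36.9 CPM with ADAR siRNA, against 31.3 CPM with control siRNA in MDA-MB-231, and 336 and 231 CPM with ADAR siRNA, against 286 CPM with control siRNA in BT-549. It had 65.4 and 59.8 CPM with ADAR siRNA, against 99.8 CPM with control siRNA in NCI-H1395, and 48.3 and 49.6 CPM with ADAR siRNA, against 68.1 CPM with control siRNA in AGS. DHCR7 was lower in both ADAR siRNA libraries of NCI-H1395 and AGS, and in BT-549 the control lay between them.

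SREBF2 encodes SREBP2. SREBF2 had 77.2 and 84.8 CPM with ADAR siRNA, against 75.2 CPM with control siRNA in MDA-MB-231, and 399.6 and 363 CPM with ADAR siRNA, against 346 CPM with control siRNA in BT-549. It had 218 and 193 CPM with ADAR siRNA, against 222 CPM with control siRNA in NCI-H1395, and 294 and 302 CPM with ADAR siRNA, against 376 CPM with control siRNA in AGS. Its levels were lowest in MDA-MB-231, and both ADAR siRNA libraries were lower than the control in NCI-H1395 and AGS. INSIG1, which retains the SREBPs and is itself a target of them, followed another pattern. INSIG1 had 40.5 and 45.7 CPM with ADAR siRNA, against 22.7 CPM with control siRNA in MDA-MB-231, and 354 and 333 CPM with ADAR siRNA, against 341 CPM with control siRNA in BT-549. It had 32.2 and 55.3 CPM with ADAR siRNA, against 67.1 CPM with control siRNA in NCI-H1395, and 39.4 and 29.5 CPM with ADAR siRNA, against 37.8 CPM with control siRNA in AGS. INSIG1 was higher in both ADAR siRNA libraries of MDA-MB-231 and lower in both of NCI-H1395, while in BT-549 and AGS the control lay between them. STARD4 carries sterol between membranes. STARD4 had 27.5 and 27.7 CPM with ADAR siRNA, against 17.1 CPM with control siRNA in MDA-MB-231, and 182 and 117 CPM with ADAR siRNA, against 201 CPM with control siRNA in BT-549. It had 39.1 and 42.2 CPM with ADAR siRNA, against 70.9 CPM with control siRNA in NCI-H1395, and 26.4 and 14.1 CPM with ADAR siRNA, against 22.4 CPM with control siRNA in AGS. STARD4, too, was higher in both libraries of MDA-MB-231 and lower in both of NCI-H1395, and also lower in both of BT-549.

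Among the fatty acid genes, SREBF1 encodes SREBP1. SREBF1 had 101 and 93.8 CPM with ADAR siRNA, against 60.1 CPM with control siRNA in MDA-MB-231, and 465 and 252 CPM with ADAR siRNA, against 398 CPM with control siRNA in BT-549. It had 233 and 139 CPM with ADAR siRNA, against 292 CPM with control siRNA in NCI-H1395, and 160.1 and 218 CPM with ADAR siRNA, against 228 CPM with control siRNA in AGS. It was higher in both ADAR siRNA libraries of MDA-MB-231 and lower in both of NCI-H1395 and AGS. ACLY frees acetyl-CoA from citrate. ACLY had 271 and 315 CPM with ADAR siRNA, against 353 CPM with control siRNA in MDA-MB-231, and 838 and 568 CPM with ADAR siRNA, against 809.5 CPM with control siRNA in BT-549. It had 227 and 211 CPM with ADAR siRNA, against 305 CPM with control siRNA in NCI-H1395, and 207 and 196 CPM with ADAR siRNA, against 254 CPM with control siRNA in AGS. ACLY was lower in both ADAR siRNA libraries of MDA-MB-231, NCI-H1395 and AGS, and in BT-549 in library 2. ACACA carboxylates acetyl-CoA to malonyl-CoA. ACACA had 97.6 and 93.1 CPM with ADAR siRNA, against 88.4 CPM with control siRNA in MDA-MB-231, and 383 and 235 CPM with ADAR siRNA, against 303 CPM with control siRNA in BT-549. It had 99.4 and 82.2 CPM with ADAR siRNA, against 143 CPM with control siRNA in NCI-H1395, and 101 and 73.9 CPM with ADAR siRNA, against 82.4 CPM with control siRNA in AGS. The 2 libraries of BT-549 lay on either side of the control, as did those of AGS.

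FASN builds palmitate from malonyl-CoA. FASN had 343 and 341 CPM with ADAR siRNA, against 321 CPM with control siRNA in MDA-MB-231, and 1900 and 927 CPM with ADAR siRNA, against 1463 CPM with control siRNA in BT-549. It had 704 and 492 CPM with ADAR siRNA, against 1064 CPM with control siRNA in NCI-H1395, and 283 and 295 CPM with ADAR siRNA, against 396 CPM with control siRNA in AGS. In BT-549, library 1 lay above the control and library 2 below it, and in NCI-H1395 and AGS both lay below. ELOVL6 lengthens palmitate. ELOVL6 had 75.7 and 78.9 CPM with ADAR siRNA, against 65.4 CPM with control siRNA in MDA-MB-231, and 46.4 and 30.1 CPM with ADAR siRNA, against 50.95 CPM with control siRNA in BT-549. It had 31.9 and 60.8 CPM with ADAR siRNA, against 50.3 CPM with control siRNA in NCI-H1395, and 56.2 and 44.5 CPM with ADAR siRNA, against 53.8 CPM with control siRNA in AGS. Its 2 libraries in NCI-H1395 lay on either side of the control. SCD puts the first double bond into saturated fatty acids. SCD had 232 and 248 CPM with ADAR siRNA, against 121 CPM with control siRNA in MDA-MB-231, and 3933 and 1898 CPM with ADAR siRNA, against 3188 CPM with control siRNA in BT-549. It had 909.7 and 771 CPM with ADAR siRNA, against 2045 CPM with control siRNA in NCI-H1395, and 675 and 862 CPM with ADAR siRNA, against 922 CPM with control siRNA in AGS. SCD was higher in both ADAR siRNA libraries of MDA-MB-231, lower in both of NCI-H1395 and AGS, and on either side of the control in BT-549.

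FADS1 and FADS2 desaturate polyunsaturated fatty acids and lie next to each other on chromosome 11, on opposite strands with 490 shared exon bases. FADS1 had 129 and 151 CPM with ADAR siRNA, against 143 CPM with control siRNA in MDA-MB-231, and 286 and 241 CPM with ADAR siRNA, against 422 CPM with control siRNA in BT-549. It had 94.1 and 78.8 CPM with ADAR siRNA, against 149.8 CPM with control siRNA in NCI-H1395, and 1.21 and 1.96 CPM with ADAR siRNA, against 1.93 CPM with control siRNA in AGS. The counts of FADS1 in AGS were 21 and 35 with ADAR siRNA and 33 with control siRNA. FADS2 had 82.7 and 93.7 CPM with ADAR siRNA, against 78.8 CPM with control siRNA in MDA-MB-231, and 855 and 393 CPM with ADAR siRNA, against 802 CPM with control siRNA in BT-549. It had 19.4 and 12.5 CPM with ADAR siRNA, against 17.4 CPM with control siRNA in NCI-H1395, and 2.95 and 3.02 CPM with ADAR siRNA, against 2.75 CPM with control siRNA in AGS. In AGS FADS2 had 51 and 54 counts with ADAR siRNA and 47 with control siRNA. With control siRNA, NCI-H1395 had FADS1 at a level like that of MDA-MB-231 and little FADS2, while AGS had little of either. The PCDH library of MDA-MB-231 had more of both, at 344 CPM of FADS1 and 414 CPM of FADS2.

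**Figure D2:**
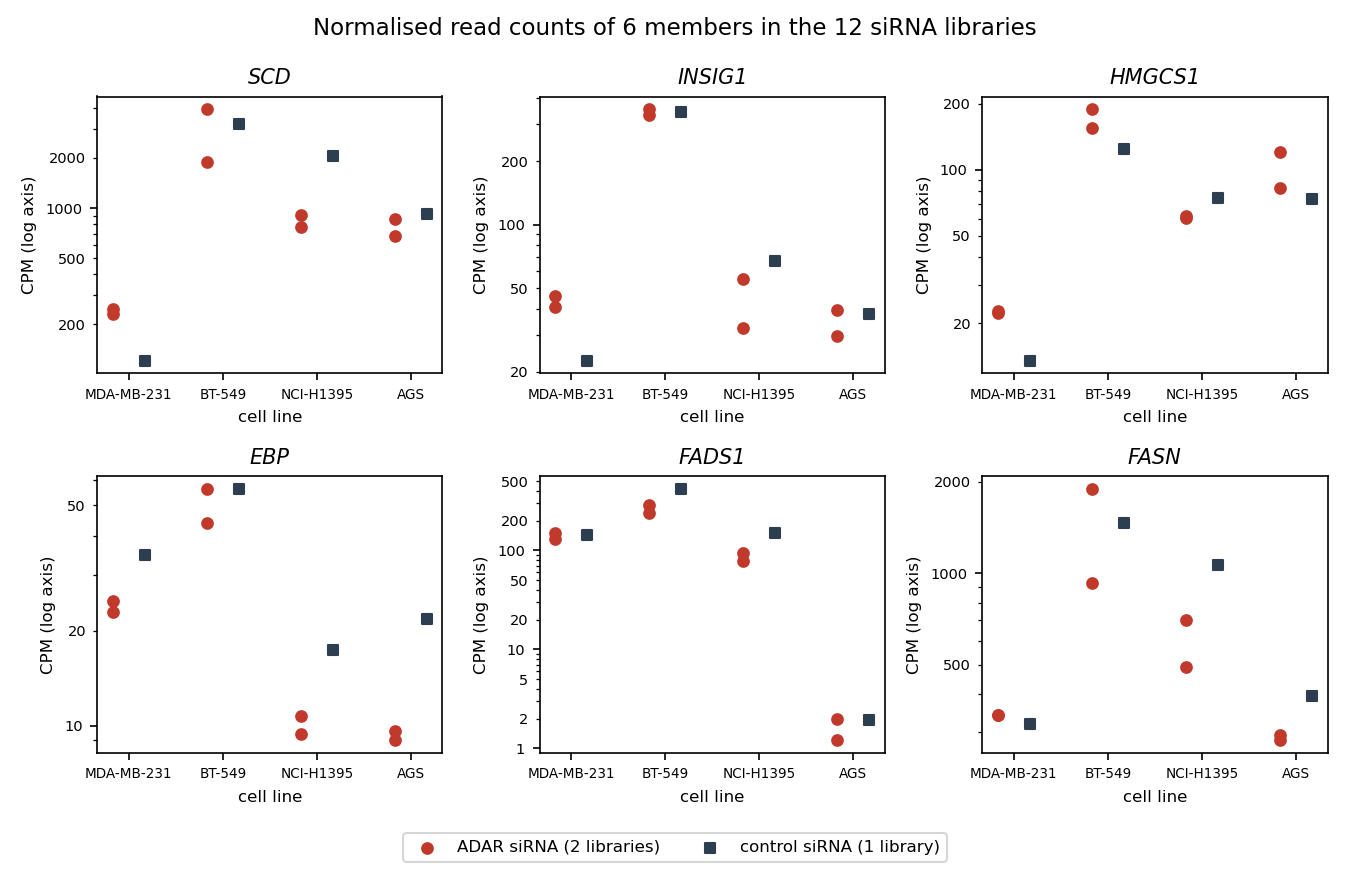
Normalised read counts of 6 members in the 12 siRNA libraries, in CPM on log axes that differ between panels. Circles are the 2 ADAR siRNA libraries of a line and the square beside them is its control siRNA library. SCD, INSIG1 and HMGCS1 lie above the control in MDA-MB-231 and below it in NCI-H1395, and EBP lies below it in both.

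Over the 4 lines, with the ADAR siRNA libraries of a line summed so that a line is the replicate, the test called 0 of 29 members, beside 0.0182% of all genes (4 of 21944). Unadjusted p was under 0.05 for 5 members, beside 11.5% of all genes, and DESeq2 called 2, beside 3.08%. The fold change was below 0 for 19 of 21 sterol genes and 8 of 8 fatty acid genes, beside 42.7% of all genes. The median log2 fold change was -0.11 for sterol genes, -0.14 for fatty acid genes and 0.06 for all genes tested. The sterol median was -0.0046 without NCI-H1395, -0.20 without MDA-MB-231 and -0.21 without library 2 of each line. The fatty acid median was -0.06 without NCI-H1395, -0.32 without MDA-MB-231 and -0.32 without library 1 of each line.

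EBP had the largest difference, -0.65 ± 0.17 (SE; edgeR adjusted p = 0.179), and was lower in 7 of 8 ADAR siRNA libraries. FADS1 stood at -0.45 ± 0.14 (SE; edgeR adjusted p = 0.24), ACLY at -0.31 ± 0.11 (SE; edgeR adjusted p = 0.275) and FDFT1 at -0.34 ± 0.12 (SE; edgeR adjusted p = 0.29). FASN stood at -0.29 ± 0.14 (SE; edgeR adjusted p = 0.437). HMGCS1 went the other way, at 0.36 ± 0.15 (SE; edgeR adjusted p = 0.371), and INSIG1 was the other member above 0, at 0.04 ± 0.24 (SE; edgeR adjusted p = 0.978). With DESeq2, ACLY (adjusted p = 0.00257) and EBP (0.0305) passed the threshold, and with no count filter edgeR called EBP (0.0259).

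CYP51A1 was the 1 member lower in all 8 ADAR siRNA libraries (1 of 21 sterol and 0 of 8 fatty acid genes), beside 2.98% of all genes. Of the members, 0 were higher in all 8, beside 2.4%. The 2.4% may include genes whose NCI-H1395 or AGS ratios were rounding residues above 0, and the share without them was not computed. The 2 libraries of a line share a control, so these 8 directions are not independent.

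**Figure D3:**
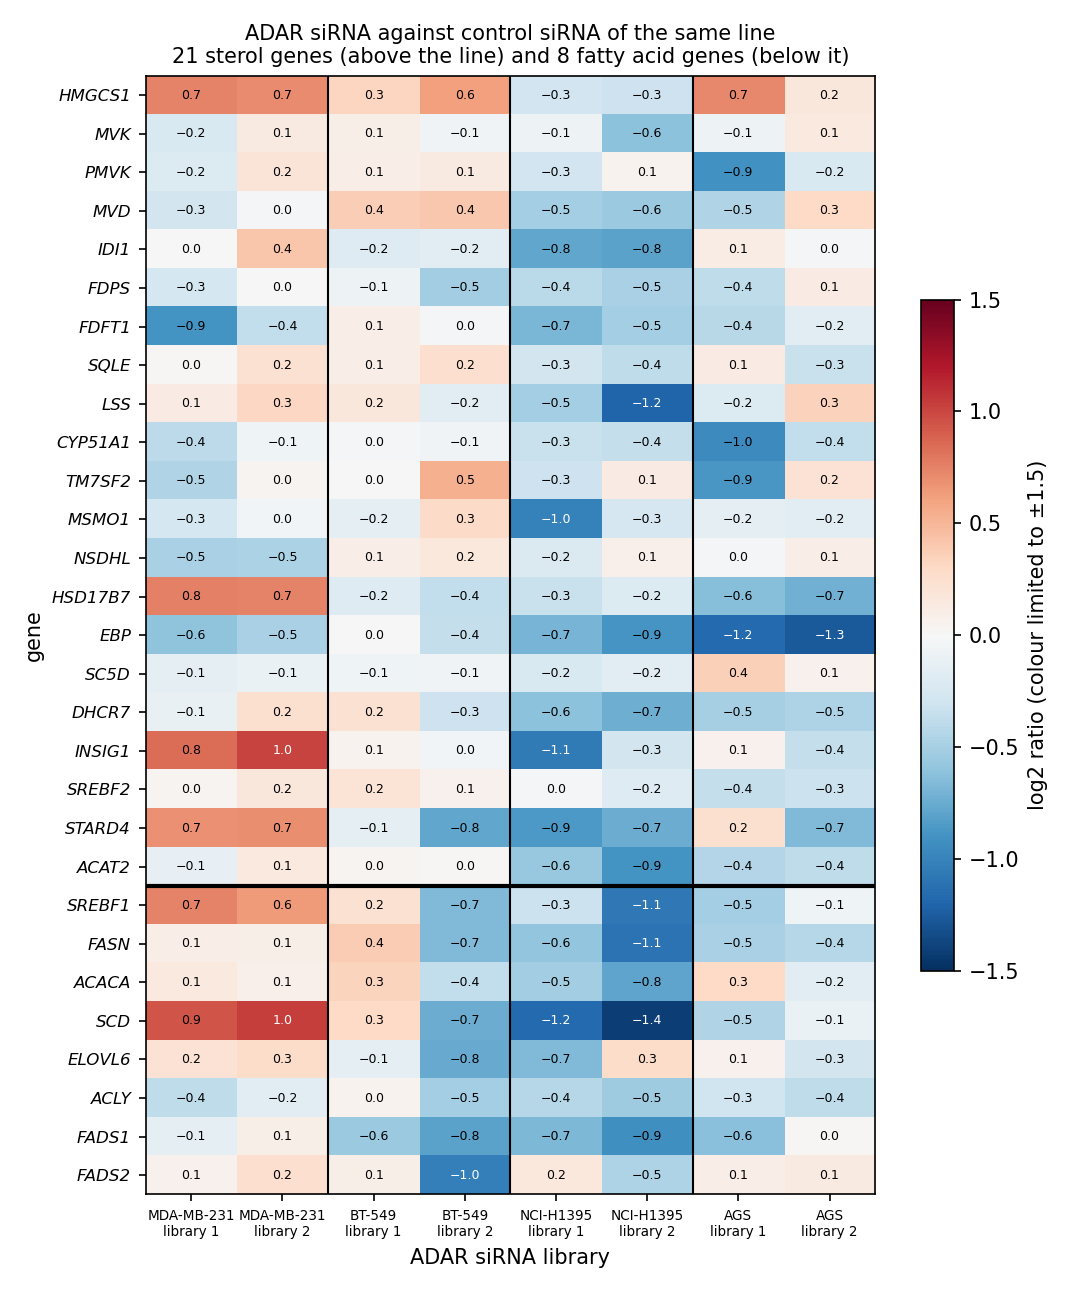
Log2 ratio of each ADAR siRNA library to the control siRNA library of its line, for the 21 sterol genes above the thick line and the 8 fatty acid genes below it. Columns are the 8 ADAR siRNA libraries, and red marks ratios above 0 and blue ratios below 0, with the colour limited to ±1.5. The NCI-H1395 columns are mostly blue, the fatty acid rows of MDA-MB-231 mostly red, and those of BT-549 blue in library 2.

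In NCI-H1395 all 29 members had a fold change below 0 with ADAR siRNA, but the test called 0 of them, beside 0.00417% of all genes (1 of 23959). The median log2 fold change was -0.45 for sterol genes and -0.65 for fatty acid genes, against 0.02 for all genes. Both libraries were lower in 18 of 21 sterol genes and 6 of 8 fatty acid genes, beside 30.8% of all genes. Both were higher in 0 of 29, beside 41.4%. The 41.4% is too high, as it also counts genes such as FABP4 and PLIN1. Their ratios of 0 came out as a rounding residue just above 0. The share without such genes was not computed. SCD had the smallest p, -1.28 ± 0.32 (SE; edgeR adjusted p = 0.409), followed by IDI1 at -0.79 ± 0.27 (SE; edgeR adjusted p = 0.713). FADS1 stood at -0.79 ± 0.27 (SE; edgeR adjusted p = 0.717), FASN at -0.83 ± 0.33 (SE; edgeR adjusted p = 0.835) and LSS at -0.82 ± 0.32 (SE; edgeR adjusted p = 0.806). The smallest differences were those of NSDHL (-0.07 ± 0.29 (SE; edgeR adjusted p = 1)) and TM7SF2 (-0.08 ± 0.42 (SE; edgeR adjusted p = 1)). In total 11 members had an unadjusted p under 0.05, beside 5.3% of all genes. The branch medians of libraries 1 and 2 were -0.41 and -0.38 for sterol genes and -0.56 and -0.86 for fatty acid genes. Both of these ratios share 1 control library.

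In MDA-MB-231 the members went both ways, and the test called 0 of 29, beside 0.0751% of all genes (18 of 23959). Unadjusted p was under 0.05 for 4 members, beside 4.85%. Both ADAR siRNA libraries were higher in 7 of 21 sterol genes and 6 of 8 fatty acid genes, beside 34% of all genes, and both lower in 8 and 1, beside 34%. The smallest p were those of INSIG1, 0.93 ± 0.32 (SE; edgeR adjusted p = 0.612), and SCD, 0.99 ± 0.35 (SE; edgeR adjusted p = 0.668). HMGCS1 stood at 0.73 ± 0.30 (SE; edgeR adjusted p = 0.877) and FDFT1 at -0.61 ± 0.28 (SE; edgeR adjusted p = 0.998). SREBF1, STARD4 and HSD17B7 stood at 0.70, 0.69 and 0.76 on the log2 scale, each with an edgeR adjusted p of 1. The median was 0.01 for sterol genes, 0.14 for fatty acid genes and 0.01 for all genes. The sterol median was -0.14 in library 1 and 0.15 in library 2. The fold change of ADAR was the smallest of the lines here, -1.60 ± 0.26 (SE; edgeR adjusted p = 0.00663), and largest in NCI-H1395, -3.16 ± 0.26 (SE; edgeR adjusted p = 9.45e-07), and its part in the members' values was not tested.

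In BT-549 the branches parted in 1 library. The 8 fatty acid genes were all below the control in ADAR siRNA library 2, with a median log2 ratio of -0.70, whereas the median in library 1 was 0.16. The sterol medians were 0.05 in library 1 and -0.04 in library 2. Both libraries were lower in 6 of 21 sterol and 2 of 8 fatty acid genes, beside 28.7% of all genes, and both higher in 8 and 0, beside 25.9%. The test called 0 of 29 members, beside 0.00417% of all genes (1 of 23959), and 1 member had an unadjusted p under 0.05, beside 3.1%. That member, FADS1, stood at -0.68 ± 0.27 (SE; edgeR adjusted p = 1), and HMGCS1, the next, at 0.47 ± 0.29 (SE; edgeR adjusted p = 1). The fatty acid median over the pair was -0.18, and ADAR was lowered alike in libraries 1 and 2, at 103 and 91.4 CPM.

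In AGS the largest difference was that of EBP, -1.22 ± 0.31 (SE; edgeR adjusted p = 0.519), with 9.64 and 9.02 CPM with ADAR siRNA, against 21.7 CPM with control siRNA in AGS. HSD17B7 was next at -0.69 ± 0.38 (SE; edgeR adjusted p = 1). The test called 0 of 29 members, beside 0.00417% of all genes (1 of 23959), and EBP alone had an unadjusted p under 0.05, beside 4.98%. Both libraries were lower in 9 of 21 sterol and 4 of 8 fatty acid genes, beside 26.7% of all genes. Both were higher in 2 and 1, beside 41%. The 41% is too high, as it also counts genes such as TFF2 and CD14. Their ratios of 0 came out as a rounding residue just above 0. The share without such genes was not computed. HMGCS1 and SC5D were the sterol genes higher in both libraries, and FADS2 the fatty acid gene. The median log2 fold change was -0.14 for sterol and -0.27 for fatty acid genes, against 0 for all genes. By library these medians moved, with -0.36 in library 1 and -0.16 in library 2 for sterol genes, and -0.37 and -0.13 for fatty acid genes.

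**Figure D4:**
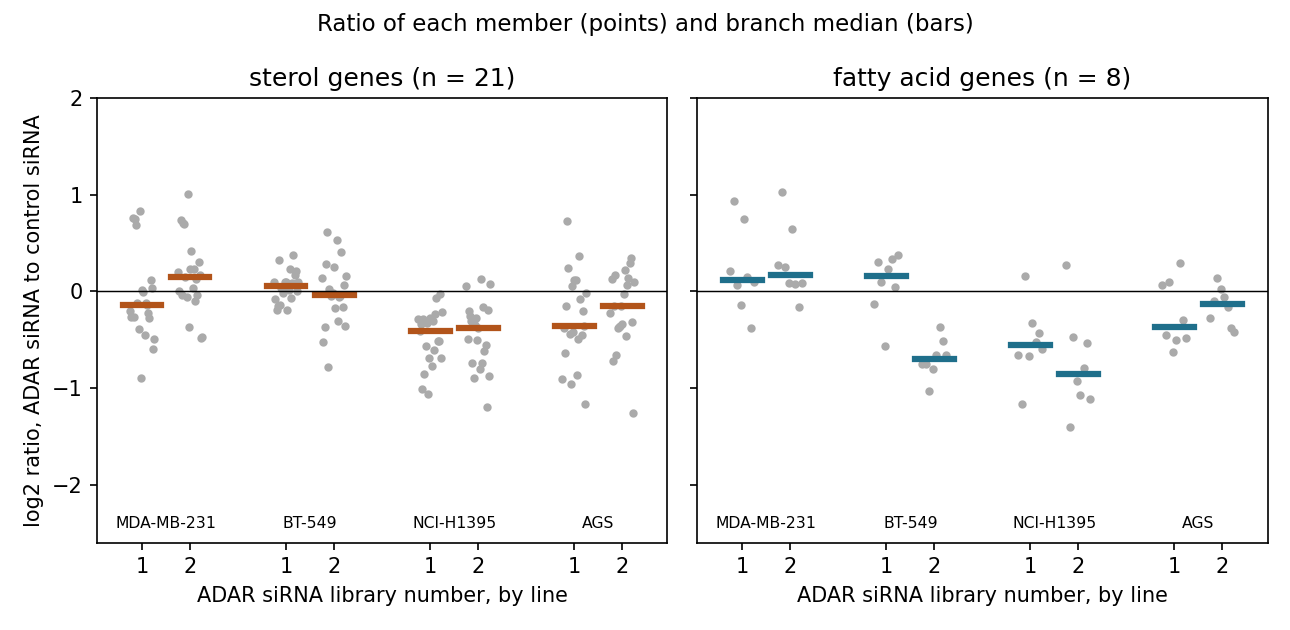
Log2 ratio of ADAR siRNA to control siRNA for each member (grey points) and the median of its branch (coloured bars), by line and library number. The left panel holds the 21 sterol genes and the right panel the 8 fatty acid genes. The fatty acid median is 0.16 in library 1 and -0.70 in library 2 of BT-549, and in NCI-H1395 the sterol medians are -0.41 and -0.38 and the fatty acid medians -0.56 and -0.86.

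Whether the response differed between lines was tested by the F test of the interaction, which called 0 of 29 members, beside 0.0292% of all genes (7 of 23959). Unadjusted p was under 0.05 for 3 members, beside 3.37%. Among fatty acid genes the smallest p belonged to SCD (edgeR, adjusted p = 0.549), SREBF1 (adjusted p = 1) and FADS1 (adjusted p = 1). The log2 fold change of SCD was 0.99 in MDA-MB-231, -0.13 for BT-549, -1.28 for NCI-H1395 and -0.26 for AGS. Without BT-549 the interaction of SCD passed the threshold (edgeR adjusted p = 0.0346), beside 0.0685% of all genes. The 2 ADAR siRNA libraries of BT-549 stood apart for SCD, with log2 ratios of 0.30 and -0.75. Among sterol genes the smallest p belonged to INSIG1, STARD4 and IDI1, each with an adjusted p of 1. INSIG1 stood at 0.93 in MDA-MB-231 and -0.62 in NCI-H1395, STARD4 at 0.69 and -0.80, and IDI1 at 0.22 and -0.79. EBP was below 0 in each of the 4 lines, from -1.22 in AGS to -0.16 in BT-549, and HMGCS1 was above 0 in each line but NCI-H1395.

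Between ADAR siRNA libraries 2 and 1, over the 4 lines, the test called 0 of 29 members, beside 0.0293% of all genes (6 of 20470), with 5 members at an unadjusted p under 0.05, beside 8.72%. The smallest p were those of TM7SF2 at 0.64 ± 0.20 (SE; edgeR adjusted p = 0.246), ACACA at -0.39 ± 0.15 (SE; edgeR adjusted p = 0.417) and FADS2 at -0.44 ± 0.19 (SE; edgeR adjusted p = 0.512). All 8 fatty acid genes were below 0, with a median of -0.28, as were 11 of 21 sterol genes, with a median of -0.01, beside 45.3% of all genes below 0 and a median of 0.04. The lines did not share this direction. Against control siRNA the fatty acid median was lower in library 2 than in library 1 in BT-549 (-0.70 and 0.16) and NCI-H1395 (-0.86 and -0.56), and higher in library 2 in MDA-MB-231 (0.17 and 0.12) and AGS (-0.13 and -0.37). ADAR stood at 0.12 ± 0.15 (SE; edgeR adjusted p = 0.918) in the same fit. No source used here says whether the numbers mean separate siRNAs.

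Other genes of the pathway were read from 4 further lists, and 0 of their genes were called over the 4 lines, within a line, between lines in their response or between libraries 2 and 1 by edgeR. Of 4 genes that process the SREBPs, 2 were below 0 over the 4 lines (median 0.02), and the smallest p was that of MBTPS2, a protease that frees them, at -0.35 ± 0.12 (SE; edgeR adjusted p = 0.276). Of 6 genes of sterol efflux and the liver X receptors, 6 were above 0 (median 0.18), and NR1H3, one of these receptors, stood at 0.37 ± 0.20 (edgeR adjusted p = 0.523). Of 9 genes that use isoprenoid diphosphates, 4 were below 0 (median 0.07), and PDSS1, of coenzyme Q synthesis, stood at -0.38 ± 0.15 (edgeR adjusted p = 0.336). Of 16 other genes of fatty acid synthesis and activation, 12 were below 0 (median -0.12), and ACSL4, which activates polyunsaturated fatty acids, stood at -0.46 ± 0.13 (edgeR adjusted p = 0.209). ACSL4 was lower in library 2 than in library 1 in BT-549, NCI-H1395 and AGS. It had 238 CPM in library 2 of BT-549 and 429 CPM in library 1, against 490 CPM with control siRNA. In NCI-H1395 the medians were -0.10, 0.26, -0.04 and -0.32 for these lists in the same order.

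With NOP14 overexpression the members stood near their levels in PCDH, with 1 library in each arm and so no test. The log2 ratio, with counts scaled within the pair and a prior count of 2, was past 1.5-fold in 0 of 29 members, beside 4.26% of 16685 genes lower and 3.4% higher. It was below 0 for 4 of 21 sterol and 4 of 8 fatty acid genes, beside 50.1% of all genes, with medians of 0.07 and 0.01 and of 0.00 for all genes. The largest ratio was that of CYP51A1, with 14.8 CPM in cells with NOP14 overexpression, against 12.4 CPM with PCDH, a log2 ratio of 0.25 (95% counting interval 0.04 to 0.47). MVK stood at 62.9 CPM in cells with NOP14 overexpression, against 55.6 CPM with PCDH (0.18, interval 0.08 to 0.28). MVD stood at 47.2 CPM in cells with NOP14 overexpression, against 41.8 CPM with PCDH (0.18, interval 0.06 to 0.30). Among fatty acid genes the largest was that of FASN, with 1106 CPM in cells with NOP14 overexpression, against 1056 CPM with PCDH (0.07, interval 0.04 to 0.09). ELOVL6 had 139 CPM in cells with NOP14 overexpression, against 144 CPM with PCDH (-0.05, interval -0.12 to 0.01) and FADS1 had 335 CPM in cells with NOP14 overexpression, against 344 CPM with PCDH (-0.04, interval -0.08 to 0.01).

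The log2 ratios of the other members ran from -0.06 for PMVK to 0.16 for TM7SF2. In the sterol branch, HMGCS1 had 86.8 CPM in cells with NOP14 overexpression, against 82.8 CPM with PCDH. FDFT1 had 135 CPM in cells with NOP14 overexpression, against 125 CPM with PCDH. DHCR7 had 195 CPM in cells with NOP14 overexpression, against 177 CPM with PCDH. These 3 enzymes stand at the head, the middle and the end of the pathway, and the value with NOP14 overexpression was the higher for each, with no test. ACAT2 had 98.3 CPM in cells with NOP14 overexpression, against 90.7 CPM with PCDH. PMVK had 23.7 CPM in cells with NOP14 overexpression, against 24.6 CPM with PCDH. IDI1 had 130 CPM in cells with NOP14 overexpression, against 128 CPM with PCDH. Of these 3, PMVK was the lower one with NOP14. FDPS had 109 CPM in cells with NOP14 overexpression, against 106 CPM with PCDH. SQLE had 43.04 CPM in cells with NOP14 overexpression, against 41.5 CPM with PCDH. LSS had 141 CPM in cells with NOP14 overexpression, against 133 CPM with PCDH. All of these were higher with NOP14. TM7SF2 had 13.9 CPM in cells with NOP14 overexpression, against 12.4 CPM with PCDH. MSMO1 had 114 CPM in cells with NOP14 overexpression, against 117 CPM with PCDH. NSDHL had 38.2 CPM in cells with NOP14 overexpression, against 35.2 CPM with PCDH. MSMO1 was the lower one here. HSD17B7 had 18.02 CPM in cells with NOP14 overexpression, against 17.3 CPM with PCDH. EBP had 28.3 CPM in cells with NOP14 overexpression, against 29.2 CPM with PCDH. SC5D had 90.4 CPM in cells with NOP14 overexpression, against 82.5 CPM with PCDH. Here EBP was lower. SREBF2 had 255 CPM in cells with NOP14 overexpression, against 243 CPM with PCDH. INSIG1 had 218 CPM in cells with NOP14 overexpression, against 219.7 CPM with PCDH. STARD4 had 90.8 CPM in cells with NOP14 overexpression, against 89.98 CPM with PCDH. SREBF2 was higher with NOP14, INSIG1 lower, and STARD4 the closest of the sterol genes to its level in PCDH. Of the fatty acid genes, SREBF1 had 238 CPM in cells with NOP14 overexpression, against 242 CPM with PCDH. ACLY had 542 CPM in cells with NOP14 overexpression, against 534 CPM with PCDH. ACACA had 144 CPM in cells with NOP14 overexpression, against 145 CPM with PCDH. SREBF1 and ACACA were lower with NOP14, and ACLY higher. SCD had 1351 CPM in cells with NOP14 overexpression, against 1332 CPM with PCDH, and FADS2 had 419 CPM in cells with NOP14 overexpression, against 414 CPM with PCDH. Per kilobase of exon, SCD had the highest level of the members in PCDH, at 274 CPM per kb.

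The control libraries of MDA-MB-231 themselves stood far apart. With control siRNA against PCDH, 18 of 21 sterol genes and 7 of 8 fatty acid genes were more than 1.5-fold lower, beside 21.4% of 17687 genes, and 0 of 29 were more than 1.5-fold higher, beside 25.2%. The median log2 ratio was -1.503 for sterol genes, -1.46 for fatty acid genes and 0.00 for all genes. Counts were scaled within this pair, so CPM of PCDH differ a little from those given beside NOP14 overexpression. SCD had 121 CPM with control siRNA and 1303 CPM with PCDH, 10.8-fold lower with control siRNA. INSIG1 had 22.7 CPM with control siRNA and 215 CPM with PCDH, a 9.46-fold difference. MSMO1 had 18.4 CPM with control siRNA and 115 CPM with PCDH, and HMGCS1 had 13.5 CPM with control siRNA and 81.02 CPM with PCDH. The steepest differences included the desaturase SCD, the retention factor INSIG1 and early and late sterol enzymes. EBP had 34.9 CPM with control siRNA and 28.6 CPM with PCDH, and PMVK had 24.8 CPM with control siRNA and 24.1 CPM with PCDH, and these were the 2 members not lower with control siRNA.

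All 3 siRNA libraries of MDA-MB-231 lay below both vector libraries in 27 of 29 members, beside 32.1% of all genes. The ADAR siRNA libraries, at 232 and 248 CPM of SCD, lay between the control siRNA library and the vector libraries. NOP14 also differed between the controls, with 335 CPM with control siRNA and 117 CPM with PCDH, scaled within this pair. With 1 library of each control, the siRNA and the vector cannot be told apart from any other difference between these libraries.

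**Figure D5:**
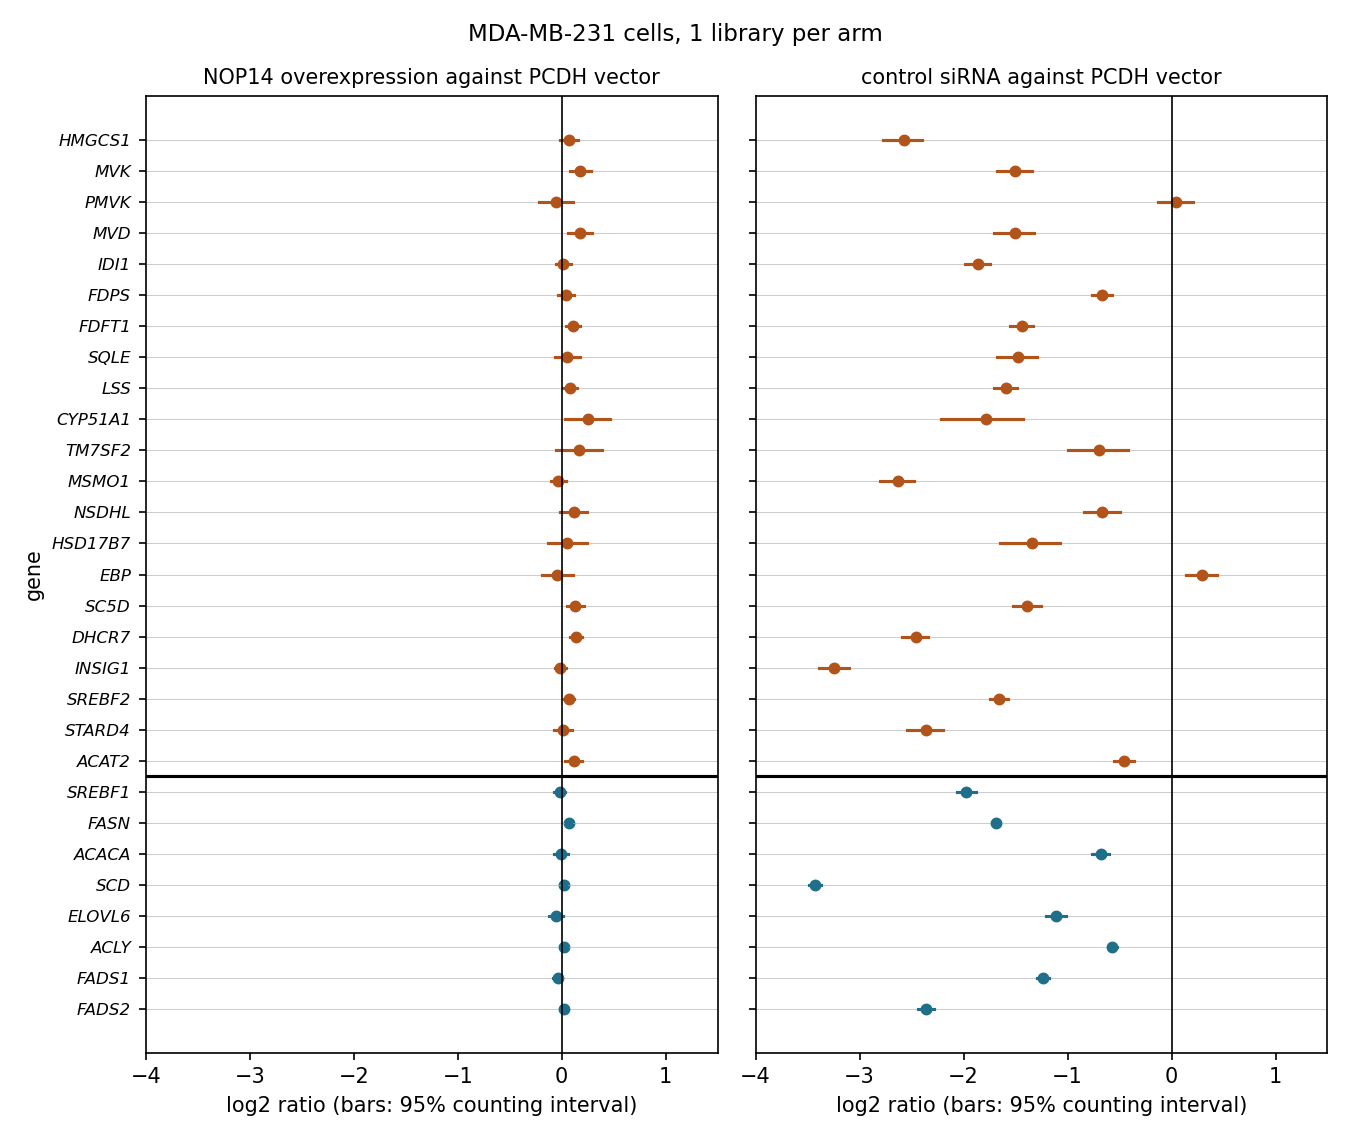
Log2 ratios in MDA-MB-231 with 1 library in each arm, NOP14 overexpression against PCDH on the left and control siRNA against PCDH on the right. Points are members, sterol genes above the thick line and fatty acid genes below it, and bars are 95% intervals that cover counting error only. The left points lie between -0.06 and 0.25, and the right ones reach -3.43 for SCD, with EBP and PMVK above 0.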

How the data were processed

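Bulk poly(A) RNA of 14 libraries was sequenced. Per the labels' protocols, poly(A) beads, fragmentation and random hexamers were used, and per the submitters' processing notes fastp 0.23.4, STAR 2.7.11a and featureCounts 2.0.6 were used with hg38. The authors deposited whole-number counts per gene and library. The strand setting and annotation release are not stated in the sources at hand. Of 62702 lines, 3 broken ones of 1 gene were not used.

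Samples were grouped from the labels by line and siRNA or vector. R 4.3.3 with edgeR 4.0.16 gave TMM scaling, filterByExpr, robust quasi-likelihood tests and Benjamini-Hochberg adjustment over all genes tested at 0.05. For the fit over the 4 lines, counts of both ADAR siRNA libraries were added up in each line (8 columns, line and treatment as terms). Tests within a line, and of the interaction, used 8 groups of the 12 siRNA libraries, where the single control is taken to vary as those pairs do. Libraries 2 and 1 were compared with line as a term. Single libraries were compared as log2 ratios with no test. Libraries of a pair differed by more than counting noise (chi-square per degree of freedom 10.6 to 58.7), so none was a repeat deposit. Counting intervals cover counting error only.

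Alternatives were DESeq2 1.42.0, other count filters, median-ratio scaling, library totals, libraries not added up, a block for the library number and leaving out libraries or lines. The tests were tried on simulated data. Members, lists, tests and the rule for named genes were chosen with earlier results of these data known. The rule gave values in every library for members called in any test, and named by smallest p or largest ratio in each branch and comparison. Some genes of the pathway are not analysed here. Figures were drawn with Python 3.11.15.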

Additional observations from a re-analysis of the deposited data

Results flagged for a closer look

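The members of each branch with the smallest p of the interaction were looked at further. In some of these both ADAR siRNA libraries of MDA-MB-231 lay above their control while both libraries of another line lay below theirs. HMGCS1, HSD17B7, LSS, SQLE, SREBF2, ACACA and FASN, not looked at further, had the same pattern against NCI-H1395, and ELOVL6 against BT-549. The share of all genes with this pattern was not computed. The mean log2 ratio of SCD was 0.98 in MDA-MB-231 and -1.29 in NCI-H1395, a difference of 2.27, and it differed by 1.26 from AGS (mean -0.27). INSIG1 differed by 1.59 between MDA-MB-231 (0.92) and NCI-H1395 (-0.67). STARD4 differed by 1.49 between MDA-MB-231 (0.69) and NCI-H1395 (-0.80), and by 1.15 from BT-549 (-0.46). SREBF1 differed by 1.39 between MDA-MB-231 (0.69) and NCI-H1395 (-0.70), and by 0.98 from AGS (-0.29). The edgeR F test of the interaction gave adjusted p of 0.549 for SCD and 1 for INSIG1, STARD4 and SREBF1. Without BT-549 that of SCD was 0.0346, and 0.0685% of all genes were called.

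The median of the 8 fatty acid genes was above 0 in both libraries of MDA-MB-231 (mean 0.14) and below 0 in both of NCI-H1395 (mean -0.71), a difference of 0.85. It was also below 0 in both of AGS (mean -0.25), a difference of 0.40 from MDA-MB-231. These differences of the median were not tested. The log2 fold change of ADAR was -1.60 in MDA-MB-231, -3.16 in NCI-H1395 and -2.27 in AGS (edgeR F test of the interaction, adjusted p = 0.516), and its part in these differences was not tested.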

How the results depend on the processing

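Over the 4 lines the count of 0 members called became 1 with no count filter (EBP, edgeR; 0.952% of all genes) and 2 with DESeq2 (ACLY and EBP; 3.08% of all genes). Over all genes the count of 4 became 394 with no count filter, 676 with DESeq2, 75 without MDA-MB-231, 14 without replicate 2, and 0 with the stricter filter, without replicate 1, without BT-549 or without NCI-H1395. Between libraries 2 and 1 it was 6, against 64 with DESeq2, 120 without MDA-MB-231, 75 without BT-549, 21 without NCI-H1395 and 0 without AGS. In MDA-MB-231 it was 18, against 45 with DESeq2, 187 with a replicate block, 4 without library 1 and 2 without library 2. In NCI-H1395 it was 1, against 47, 149, 38 and 39 under the same settings, in BT-549 1, against 3, 42, 32 and 1, and in AGS 1, against 14, 65, 8 and 1, with 2 under median-ratio scaling. For the interaction it was 7, against 43 with DESeq2, 211 with the block, 0 without MDA-MB-231, 16 without BT-549, 17 without NCI-H1395 and 11 without AGS. The differences between libraries 2 and 1 correlated at -0.05 to 0.20 between lines, and the numbers were not taken to pair the samples. The correlations among BT-549, NCI-H1395 and AGS were 0.197, 0.108 and 0.0858, and those with MDA-MB-231 were lower. Such values cannot show whether the numbers mean the same siRNAs or batches in each line. With a replicate block, 1 member was called within MDA-MB-231, 1 within NCI-H1395 and 1 for the interaction, each of them SCD (edgeR adjusted p = 0.0473, 0.000349 and 6.03e-05), beside 0.781%, 0.622% and 0.881% of all genes. Without BT-549, 1 member was called for the interaction, again SCD, beside 0.0685% of all genes. With PCDH in place of control siRNA, chosen after seeing the data, MDA-MB-231 was lowest for 1 sterol gene in place of 14 and 0 fatty acid genes in place of 3, and with its vector libraries included it lay below the other lines in 1 in place of 8 and 0 in place of 2. No share of all genes was computed for the counts with PCDH or the vector libraries, and the cause of these changes was not tested.

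Over the 4 lines the sterol median ran from -0.21 without library 2 to -0.0046 without NCI-H1395, and the fatty acid median from -0.32 without MDA-MB-231 to -0.06 without NCI-H1395. Both stayed below 0 under the alternatives run. With 1 ADAR siRNA library left out, the fatty acid median lay between 0.12 and 0.18 in MDA-MB-231 and between -0.89 and -0.56 in NCI-H1395. The sterol median lay at -0.41 without either library in NCI-H1395 and between -0.35 and -0.16 in AGS, where the fatty acid median lay between -0.37 and -0.13. In BT-549 the fatty acid median was -0.70 without library 1 and 0.16 without library 2, and in MDA-MB-231 the sterol median was 0.15 and -0.14. Of the named members, 7 values under other settings passed the threshold where the reported one had not, and 0 changed sign. Depth limits CYP51A1 (39 counts in its lowest siRNA library) and FADS1 and FADS2 in AGS.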

Other observations

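The 2 neighbouring desaturase genes differed in balance between lines. Per kilobase of exon, the level of FADS2 over that of FADS1 was 0.621 and 0.600 with ADAR siRNA and 0.535 with control siRNA in MDA-MB-231. It was 2.90 and 1.58 with ADAR siRNA and 1.84 with control siRNA in BT-549, and 0.200 and 0.154 with ADAR siRNA and 0.113 with control siRNA in NCI-H1395. In MDA-MB-231 it was 1.21 with NOP14 overexpression and 1.17 with PCDH, above the 3 siRNA libraries of the same line. AGS, where both genes were near 2 to 3 CPM, gave 2.35 and 1.495 with ADAR siRNA and 1.38 with control siRNA, on 21 to 35 counts of FADS1.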
